A study of Rattus norvegicus with 38 samples.

Results

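Kidney expression of 6 genes used as markers of tubular injury and dedifferentiation was followed in rats treated for 7 weeks with an antiserum, with a nitric oxide synthase inhibitor or with both. The genes were fixed by Ensembl identifier, with the symbol that goes with each: Havcr1 (kidney injury molecule 1, KIM-1; ENSRNOG00000007243), Lcn2 (neutrophil gelatinase-associated lipocalin, NGAL; ENSRNOG00000013973), Spp1 (osteopontin; ENSRNOG00000043451), Clu (clusterin; ENSRNOG00000016460), Vim (vimentin; ENSRNOG00000018087) and Cd44 (ENSRNOG00000006094). All 6 were found among the 30207 genes of the expression table, and all 6 were among the 12599 genes abundant enough to be tested. The combination joined anti-Fx1A at 2.0 mL/kg to a daily L-NAME dose of 20 mg/kg and was given to 10 animals. L-NAME alone at the same daily dose, anti-Fx1A alone at 2.5 mL/kg and vehicle were given to 10, 10 and 8 animals. Anti-Fx1A is raised against a fraction of the proximal tubule brush border and is the classical agent of passive Heymann nephritis, whereas L-NAME blocks the synthesis of nitric oxide and raises blood pressure. The antiserum dose was lower in the combination, so comparisons of the combination with anti-Fx1A alone hold a difference in dose as well as the added L-NAME. The sources used here do not give the strain, sex or age of the rats. The tissue label was not checked against marker genes, because the other identifiers were not paired with symbols.

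The healthy tubule makes little of most of these products. Havcr1 is a phosphatidylserine receptor that appears on the apical face of damaged proximal tubule cells and lets them engulf dead neighbours, and Lcn2 is a small secreted carrier of iron-binding siderophores that is released by the injured distal nephron. Spp1 is a secreted phosphoprotein that binds integrins and the hyaluronan receptor Cd44, Clu is a secreted chaperone of misfolded proteins, and Vim is an intermediate filament protein of mesenchymal cells that tubule cells take up again when they lose their differentiated state. Vim, Cd44 and Spp1 are also made by stromal cells and leukocytes, and Lcn2, as its name says, by neutrophils. In RNA of whole kidney a change in the number of such cells and a change in RNA per cell cannot be told apart, and their part in the results was not tested.

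The values are the deposited log2 values, which are scaled for library size and variance-stabilised, so that a count of 0 stands at 4.32 and differences between low counts are compressed. Read numbers were recovered from them. The libraries held 4120902 to 7728848 reads from transcript 3' ends. Animals are named by group and number. Numbering went group by group, so a processing batch along the numbers cannot be told apart from treatment.

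Before the comparisons, 6 animals have to be named, since they led their groups in these genes. Anti-Fx1A animal 10 was the highest of its group in all 6 genes. Combination animals 29 and 35 took the 2 highest places of their group in 6 of 6 genes. L-NAME animal 23 was among the 2 highest of its group in 6 genes and L-NAME animal 25 in 5. Vehicle animal 7 was the highest vehicle animal in 5 of the 6 genes and the second highest for Vim. The share of reads taken by the 10 most abundant genes was 25.8% in combination animal 29, 21.1% in combination animal 35, 24.6% in L-NAME animal 23, 21.9% in L-NAME animal 25 and 18.2% in anti-Fx1A animal 10. It was at least 28.1% in every vehicle animal and 31.3% in vehicle animal 7. Low shares also occurred in animals that did not lead their groups, with 20.96% in anti-Fx1A animal 11, 23.4% in L-NAME animal 21 and 24.3% in L-NAME animal 22. With this share as a covariate, 4 of the 6 genes were again called in the combination against vehicle, where 39.3% of all genes were, and 1 of the 6 with anti-Fx1A alone, where 2.06% of all genes were. The share comes from the same treated kidneys, so this fit cannot tell library composition apart from treatment. Depth of these 6 libraries lay inside the range of the others. When animals were weighted by how well their library followed its group over all genes, vehicle animal 1, L-NAME animal 25 and anti-Fx1A animal 10 had the lowest weights, 0.279, 0.294 and 0.300.

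**Figure D1:**
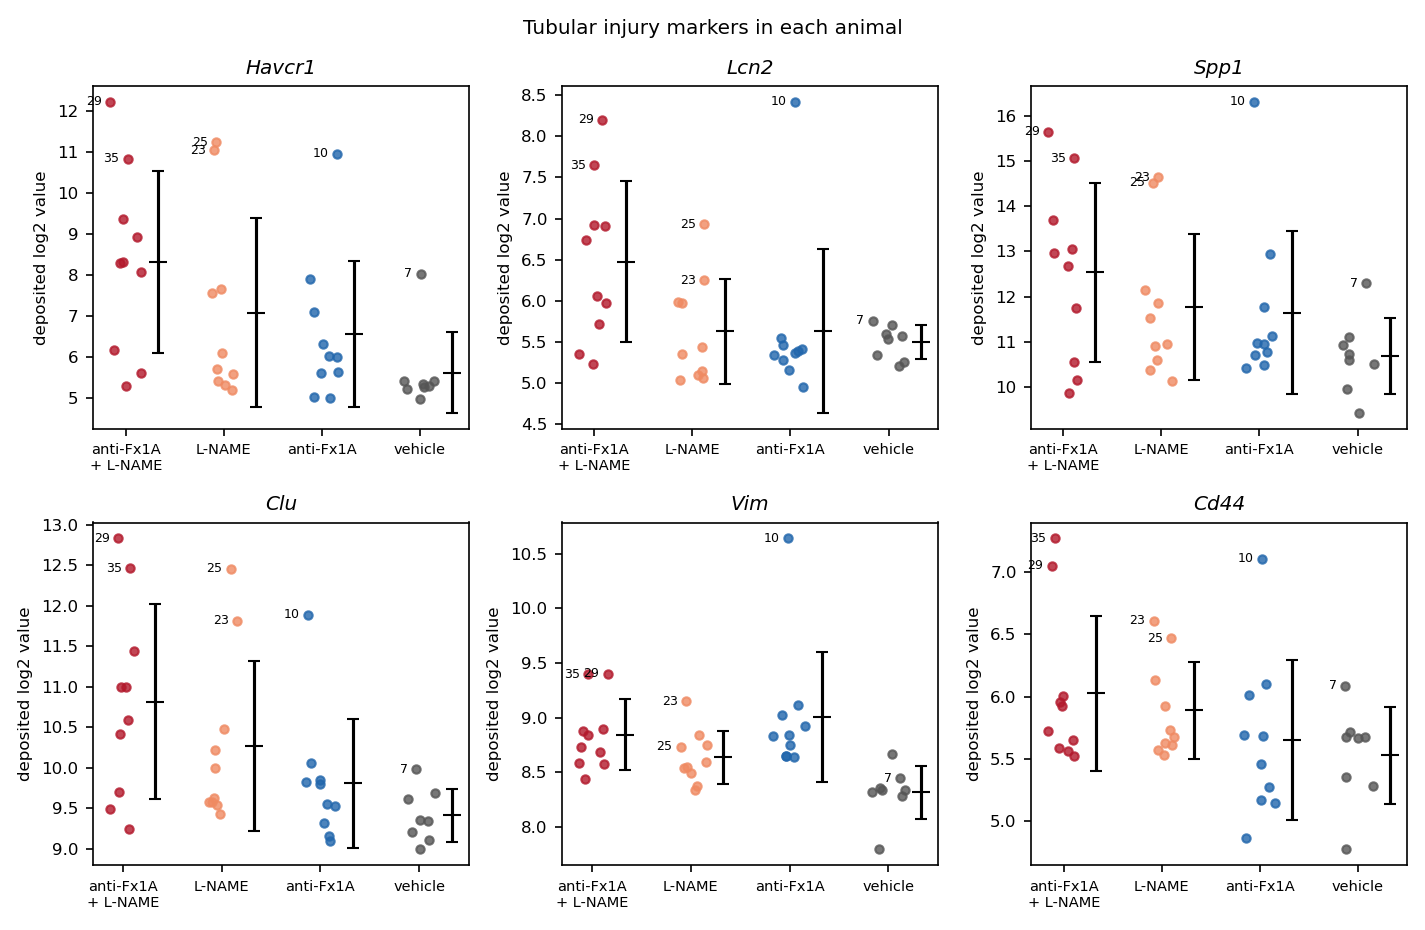
Deposited log2 value (y axis) of each of the 6 genes in every animal, with 10 combination, 10 L-NAME, 10 anti-Fx1A and 8 vehicle animals from left to right. Points are animals, bars to their right are mean ± SD, and numbers name the 6 animals that led their groups. In Havcr1, 7 combination animals lie above the highest vehicle animal (8.02).

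The stretches before the transcription starts of Havcr1, Spp1 and Lcn2 are shown as examples, 250 bases each, from RefSeq on build GRCr8. Correlation across animals does not set these genes apart, since all 15 pairs of the 6 genes passed by Pearson's r. Havcr1 lies at chr10:31629528-31629777 (plus strand), Spp1 at chr14:5619805-5620054 (minus strand) and Lcn2 at chr3:36081781-36082030 (minus strand). Promoters of 5 of the 6 genes were matched by symbol, and that of Clu was not. Capitals mark matches to the motifs searched on both strands.
Havcr1: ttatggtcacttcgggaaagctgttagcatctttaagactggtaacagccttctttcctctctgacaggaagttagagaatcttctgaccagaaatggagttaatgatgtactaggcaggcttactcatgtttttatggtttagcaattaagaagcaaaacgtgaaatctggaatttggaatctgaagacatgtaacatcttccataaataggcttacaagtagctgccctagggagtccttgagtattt
Spp1: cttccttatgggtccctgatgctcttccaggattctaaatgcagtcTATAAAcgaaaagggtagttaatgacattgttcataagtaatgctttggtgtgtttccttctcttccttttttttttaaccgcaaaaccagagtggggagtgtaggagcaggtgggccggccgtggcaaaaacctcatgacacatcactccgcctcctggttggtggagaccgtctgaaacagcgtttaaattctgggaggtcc
Lcn2: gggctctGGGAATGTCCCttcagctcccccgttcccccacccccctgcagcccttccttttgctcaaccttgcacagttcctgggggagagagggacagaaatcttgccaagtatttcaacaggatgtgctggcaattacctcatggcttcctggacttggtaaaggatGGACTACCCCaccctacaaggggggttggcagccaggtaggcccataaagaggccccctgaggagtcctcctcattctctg

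The motifs were those of NF-kB in its strict consensus and in a loose form (GGG and CC, 5 bases apart), AP-1 (TGANTCA), STAT (TTCNNNGAA), Sp1 (GGGCGG), the TATA box (TATAAA) and the cyclic AMP response element (TGACGTCA). Lcn2 held the loose NF-kB form starting 243, 242 and 81 bases before the start, with the first 2 matches overlapping on opposite strands. Spp1 held a TATA box motif 204 bases before the start, and Havcr1 held 0 of the motifs in this window. The loose NF-kB form was present in 3 of the 5 promoters (Lcn2, Vim and Cd44), against 42.3% of the 33469 rat promoters of this length, and the TATA box motif in 2 of 5 (Spp1 and Vim), against 12.9%. The strict NF-kB, AP-1, STAT and cyclic AMP motifs were in 0 of the 5, against 0.0956%, 6.34%, 7.67% and 1.59% of all promoters. In Vim the loose NF-kB matches overlap each other, and Vim also held the Sp1 motif, as did 30.5% of promoters. A match describes letters in this window and does not show binding.

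Havcr1 had the largest increase over vehicle in the combination among all 12599 genes tested, with a wide spread between animals. This rank was not particular to the combination. Havcr1 also ranked 1 for the increase with L-NAME alone and 10 with anti-Fx1A alone, where it was not called. It ran from 5.28 over a median of 8.30 to 12.22 in the combination, which is 11, 275.5 and 5389 reads. It ran from 5.19 over 5.89 to 11.22 with L-NAME alone and from 5.001 over 6.0 to 10.95 with anti-Fx1A alone, against 4.96 over 5.31 to 8.02 with vehicle (4, 9 and 235 reads). The groups overlapped, because combination animals 36, 30 and 38 stayed at 5.28, 5.59 and 6.15 while vehicle animal 7 reached 8.02. The other 7 combination animals lay above every vehicle animal, against 2 of 10 with L-NAME (animals 23 and 25) and 1 of 10 with anti-Fx1A (animal 10). Below vehicle animal 7 the next vehicle animal stood at 5.41, and 9 of 10 combination, 8 of 10 L-NAME and 8 of 10 anti-Fx1A animals exceeded that level. The combination exceeded vehicle by 2.69 log2 units (SE 0.91, limma adjusted p = 0.0201), a 6.45-fold difference on this scale. The corresponding differences were 1.46 with L-NAME (SE 0.91, adjusted p = 0.297) and 0.94 with anti-Fx1A (SE 0.91, adjusted p = 0.697), and neither passed in limma. On recovered reads with voom the difference between the combination and vehicle was larger, at 3.96, and was not called (SE 1.87, adjusted p = 0.106), within adjusted p of 0.00946 to 0.106 over 28 alternatives. The call was kept without each of the 18 animals in turn, with differences of 2.25 to 3.03.

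Lcn2 rose in the combination. It ran from 5.24 over 6.39 to 8.20 in the combination (10, 57 and 291 reads), against 5.21 over 5.55 to 5.76 with vehicle (6, 14 and 23 reads). With L-NAME it ran from 5.03 over 5.397 to 6.93 and with anti-Fx1A from 4.95 over 5.38 to 8.42, and the medians of both stood below that of vehicle. Above the vehicle range lay 7 of 10 combination animals, 4 of 10 L-NAME animals and 1 of 10 anti-Fx1A animals. That animal was number 10, at 8.42 and 311 reads, the highest Lcn2 value of the series, and the other 9 anti-Fx1A animals reached at most 5.55. The combination exceeded vehicle by 0.98 (SE 0.37, limma adjusted p = 0.0348). L-NAME and anti-Fx1A alone differed from vehicle by 0.13 (SE 0.37, adjusted p = 0.846) and 0.14 (SE 0.37, adjusted p = 0.917). The call in the combination depended on single animals: it was lost without vehicle animal 3, 4 or 8 and without combination animal 29, 31, 35 or 37, with differences of 0.79 to 0.96 and adjusted p of 0.053 to 0.0800. Voom gave 1.70 and no call (SE 0.72, adjusted p = 0.0705), within adjusted p of 0.00526 to 0.0800 over 27 alternatives.

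The difference of Spp1 between the combination and vehicle did not pass. It ran from 9.86 over 12.82 to 15.65 in the combination, that is from 965 over 7081 to 58477 reads. With L-NAME it ran from 10.14 over 11.24 to 14.64 and with anti-Fx1A from 10.42 over 10.96 to 16.32, against 9.42 over 10.66 to 12.30 with vehicle (644, 1500 and 5297 reads). Anti-Fx1A animal 10 held 83534 Spp1 reads, which is 1.60% of its library, against 0.0824% in vehicle animal 7, the highest of its group. Above the vehicle range lay 6 of 10 combination, 2 of 10 L-NAME and 2 of 10 anti-Fx1A animals, the last being animals 9 and 10. The 3 lowest combination animals, 30, 36 and 38, lay between 9.86 and 10.55, inside the vehicle range. The combination differed from vehicle by 1.85 (SE 0.78, limma adjusted p = 0.0598). It passed without vehicle animal 7 (2.08, adjusted p = 0.0442), without combination animal 30 (2.15, 0.0289), 36 (2.12, 0.0322) or 38 (2.07, 0.0380), when the 3 low-weight libraries were dropped (1.67, 0.0451) and without trend and robust estimation (1.85, 0.0451), within 0.0289 to 0.125 over 28 alternatives. Leaving out the highest vehicle animal or 1 of the 3 lowest combination animals raises the difference by construction. Calls gained without vehicle animal 7 or combination animal 30, 36 or 38 are therefore a description and not added evidence. The differences with L-NAME and anti-Fx1A alone were 1.08 (SE 0.78, adjusted p = 0.372) and 0.96 (SE 0.78, adjusted p = 0.632).

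Clu rose in the combination. It ran from 9.24 over 10.79 to 12.83 in the combination (673, 1842.5 and 8256 reads), against 8.99 over 9.34 to 9.98 with vehicle (389, 621.5 and 1031 reads). It ran from 9.43 over 9.81 to 12.45 with L-NAME and from 9.10 over 9.67 to 11.89 with anti-Fx1A. Above every vehicle animal lay 7 of 10 combination, 5 of 10 L-NAME and 2 of 10 anti-Fx1A animals, and all 10 L-NAME animals lay above the vehicle median. The combination exceeded vehicle by 1.41 (SE 0.43, limma adjusted p = 0.0105), and the call was kept in all 28 alternatives, with adjusted p of 0.00279 to 0.0257. The differences of 0.86 with L-NAME (SE 0.43, adjusted p = 0.181) and 0.40 with anti-Fx1A (SE 0.43, adjusted p = 0.741) did not pass.

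Vim was the one gene of the 6 that passed with anti-Fx1A alone. It ran from 8.64 over 8.84 to 10.64 with anti-Fx1A (328, 423.5 and 1593 reads), against 7.79 over 8.34 to 8.66 with vehicle (183, 250 and 485 reads). It ran from 8.44 over 8.79 to 9.40 in the combination and from 8.34 over 8.57 to 9.15 with L-NAME. All 10 anti-Fx1A animals exceeded the second highest vehicle animal (8.45), and 7 of 10 exceeded the highest, as did 7 of 10 combination and 4 of 10 L-NAME animals. Anti-Fx1A exceeded vehicle by 0.69 (SE 0.18, limma adjusted p = 0.0368) and the combination by 0.53 (SE 0.18, adjusted p = 0.0177), while the 0.32 with L-NAME did not pass (SE 0.18, adjusted p = 0.226). The call in the combination was kept in all 28 alternatives, with adjusted p of 0.00183 to 0.0430.

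The call of Vim with anti-Fx1A alone stood near the threshold. Without animal 10, the highest, the difference was smaller at 0.51 and its adjusted p was 0.0260, because the spread fell as well (SE 0.12). It was lost without vehicle animal 1 (0.61, adjusted p = 0.0701), 2, 4, 5, 6, 7 or 8 (0.68 to 0.71, adjusted p of 0.0572 to 0.0652) and without anti-Fx1A animal 12 (0.68, adjusted p = 0.0653) or 15 (0.71, adjusted p = 0.0512). It was also lost without the filter on low values (0.69, 0.0550), in a fit of only these groups (0.69, 0.137) and with voom (0.77, 0.0908), within 0.0147 to 0.137 over 28 alternatives.

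Cd44 was read rarely. It ran from 5.52 over 5.83 to 7.27 in the combination (16, 24 and 146 reads), from 5.53 over 5.71 to 6.61 with L-NAME and from 4.86 over 5.57 to 7.11 with anti-Fx1A, against 4.77 over 5.67 to 6.09 with vehicle (2, 15.5 and 36 reads). The groups overlapped almost fully, and 2 of 10 combination animals (29 and 35), 3 of 10 L-NAME animals (23, 25 and 28) and 2 of 10 anti-Fx1A animals (10 and 12) exceeded every vehicle animal. The difference of 0.50 between the combination and vehicle did not pass (SE 0.24, limma adjusted p = 0.104), nor in any of 27 alternatives (0.0714 to 0.226). Those of 0.36 with L-NAME (adjusted p = 0.337) and 0.12 with anti-Fx1A (adjusted p = 0.881) did not pass either in limma.

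Counted together, 4 of the 6 genes were higher in the combination than with vehicle (Havcr1, Lcn2, Clu and Vim; limma adjusted p under 0.05 over all genes tested) and 0 were lower, while 6 of 6 had an unadjusted p under 0.05. Of all 12599 genes tested, 35.8% were called in this comparison, 18.4% were called higher, and 45.9% had an unadjusted p under 0.05. The median difference was 1.19 over the 6 genes and -0.01 over all genes tested. With voom, 2 of the 6 were called (Clu and Vim), where 30.2% of all genes were, so this count lies near the share over all genes. Against vehicle, L-NAME alone changed 0 of the 6 in limma (0 at an unadjusted p under 0.05 and 0 with voom), where 14.1% of all genes were called, 7.91% of all genes as higher, and 28.7% had an unadjusted p under 0.05. The median difference was 0.61 over the 6 and -0.01 over all. Anti-Fx1A alone changed 1 of the 6 (Vim; 0 with voom), where 1.1% of all genes were called, 0.929% of all genes as higher, and 14.6% had an unadjusted p under 0.05. The median was 0.54 over the 6 and 0.00 over all. These 3 comparisons share the 8 vehicle animals.

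**Figure D2:**
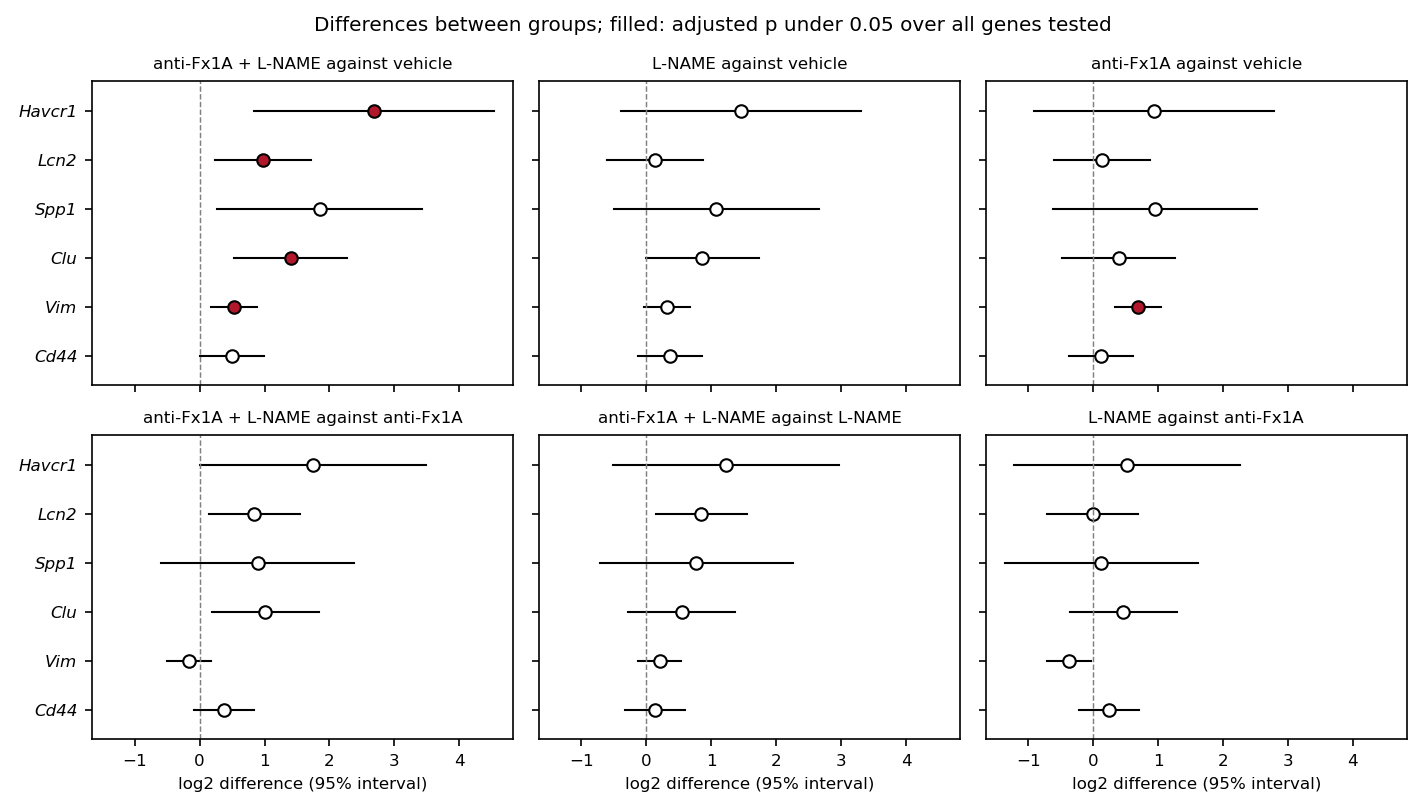
Difference in log2 value between groups (x axis) for each of the 6 genes (y axis), with 95% intervals from limma, 1 panel per comparison. Filled points passed an adjusted p of 0.05 over all genes tested: 4 genes for the combination against vehicle and Vim for anti-Fx1A against vehicle.

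The order of the group means was combination, L-NAME, anti-Fx1A and vehicle for Havcr1, Spp1, Clu and Cd44. For Havcr1 these means were 8.30 ± 2.22, 7.07 ± 2.31, 6.55 ± 1.78 and 5.61 ± 0.98 (SD, n = 10, 10, 10 and 8). For Clu they were 10.81 ± 1.199, 10.27 ± 1.05, 9.80 ± 0.80 and 9.41 ± 0.33. Lcn2 averaged 6.47 ± 0.98 in the combination and 5.50 ± 0.21 with vehicle, with L-NAME and anti-Fx1A both at 5.63. Vim had another order, with anti-Fx1A highest at 9.005 ± 0.60, then the combination at 8.84 ± 0.33, L-NAME at 8.64 ± 0.24 and vehicle at 8.32 ± 0.24. Between neighbours in these orders 0 differences passed for any of the 6 genes (limma, adjusted p under 0.05).

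Comparison of the combination with anti-Fx1A alone asks what L-NAME added, with the difference in antiserum dose. In limma 0 of the 6 genes were called, with 3 at an unadjusted p under 0.05 and 0 with voom, where 19.3% of all genes were called, 9.49% of all genes as higher, and 34.3% had an unadjusted p under 0.05. This outcome changed without anti-Fx1A animal 10, the highest of its group in all 6 genes. Leaving that animal out raises these differences by construction, so calls gained without it are a description and not added evidence. The differences with all animals were 1.75 for Havcr1 (SE 0.86, adjusted p = 0.144), 0.84 for Lcn2 (SE 0.35, adjusted p = 0.0790) and 1.01 for Clu (SE 0.41, adjusted p = 0.0732). Without animal 10 they were 2.24 (SE 0.82, adjusted p = 0.0459), 1.15 (SE 0.28, adjusted p = 0.00342) and 1.24 (SE 0.39, adjusted p = 0.0206), and 3 of the 6 genes passed, where 22.4% of all genes did. Spp1 differed by 1.41 without animal 10 (adjusted p = 0.116) and by 0.89 with it (adjusted p = 0.398). Cd44 was at 0.54 without animal 10 (adjusted p = 0.0554) and 0.38 with it. Vim differed by 0.02 (SE 0.11, adjusted p = 0.918) without animal 10 and by -0.16 (SE 0.17, adjusted p = 0.511) with it. Single combination animals mattered as well: without animal 30 Clu passed (1.16, adjusted p = 0.0447), and without animal 36 or 38 both Clu (1.19 and 1.13, adjusted p = 0.0359 and 0.0475) and Lcn2 (0.98 and 0.97, adjusted p = 0.0415 and 0.0448) did. Animals 30, 36 and 38 were the lowest of their group in both genes, so leaving any of them out also raises the difference by construction. In the other direction, without combination animal 29 the Havcr1 difference fell to 1.315 (limma adjusted p = 0.277). Under library weights 3 genes passed, and 4 did when the 3 low-weight libraries were dropped, the fourth being Cd44 (0.54, adjusted p = 0.0382). Of all genes, 24% were called under library weights and 27.7% without these libraries. Anti-Fx1A animal 10 is among the low-weight libraries, so the limit given for leaving it out holds here too. Over all alternatives the adjusted p ran from 0.0282 to 0.277 for Havcr1, from 0.00164 to 0.168 for Lcn2, from 0.00967 to 0.156 for Clu and from 0.0382 to 0.467 for Cd44.

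**Figure D3:**
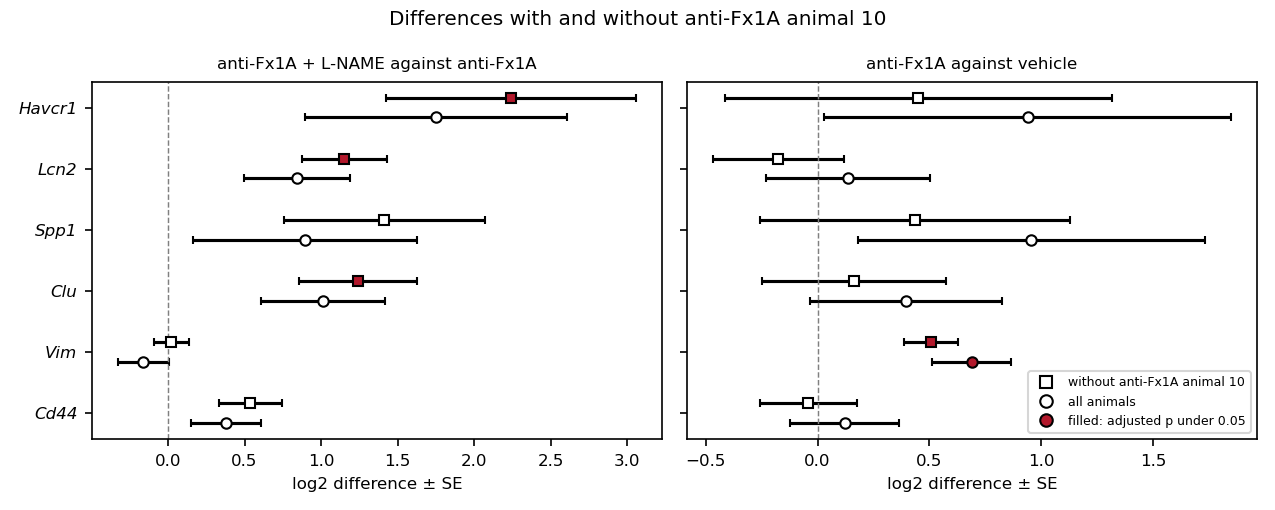
Log2 difference ± SE (x axis) of the 6 genes (y axis) for the combination against anti-Fx1A (left) and anti-Fx1A against vehicle (right), without anti-Fx1A animal 10 (squares) and with all animals (circles). Filled symbols passed an adjusted p of 0.05: without that animal Havcr1, Lcn2 and Clu pass on the left, and Vim passes on the right both with and without it. Animal 10 was the highest of its group in all 6 genes, so leaving it out raises the differences on the left by construction.

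Comparison of the combination with L-NAME alone asks what the antiserum added. All 6 genes had higher means in the combination and 0 of 6 were called in limma, with 1 at an unadjusted p under 0.05 (Lcn2) and 0 with voom, where 1.2% of all genes were called, 0.833% of all genes as higher, and 15.6% had an unadjusted p under 0.05. Lcn2 differed by 0.85 (SE 0.35, adjusted p = 0.222). It passed under library weights (0.84, adjusted p = 0.0420) and when the 3 low-weight libraries were dropped (0.99, adjusted p = 0.0160), settings in which 7.86% and 9.17% of all genes were called. L-NAME animal 25, among those dropped, had the highest Lcn2 value of its group (6.93), so dropping it raises the difference by construction. In both settings anti-Fx1A animal 10 (8.42) counted less or not at all, and the SE was 0.26. These calls are a description and not added evidence. The adjusted p lay between 0.0160 and 0.378 over 29 alternatives. Havcr1 differed by 1.23, with a 95% interval of -0.52 to 2.97, and Spp1 by 0.77 (-0.71 to 2.26).

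L-NAME alone against anti-Fx1A alone gave 0 calls among the 6 genes in limma, 1 at an unadjusted p under 0.05 and 0 with voom, where 0.381% of all genes were called, 0.135% of all genes as higher, and 11% had an unadjusted p under 0.05. Vim was the gene with the low unadjusted p, being lower with L-NAME by 0.37 log2 units (log2 difference -0.37, SE 0.17, adjusted p = 0.401). The difference of Lcn2 was 0.00, with a 95% interval of -0.70 to 0.70. The effect of L-NAME in the presence of anti-Fx1A was also tested against its effect without it. In limma 0 of the 6 genes and 0% of all genes were called for this difference, with 0 of the 6 and 8.75% of all genes at an unadjusted p under 0.05, and 0 of the 6 with voom. It was 0.71 for Lcn2 (95% interval -0.31 to 1.73), -0.48 for Vim (-0.97 to 0.00) and 0.29 for Havcr1 (-2.25 to 2.83). The antiserum dose was lower in the combination than with anti-Fx1A alone, so these values hold a difference in dose as well.

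In 0 of the 6 genes did every animal of a treated group lie above every vehicle animal, as it did in 3.18% of all genes tested for the combination, 0.691% for L-NAME and 0.0794% for anti-Fx1A. Nor did every combination animal lie above every animal given anti-Fx1A alone (0 of 6, against 0.159% of all genes) or L-NAME alone (0 of 6, against 0.00794%). High values were spread unevenly over the animals. Counting for each animal how many of the 6 genes lay above every vehicle animal, the median was 4.5 genes in the combination, 1 with L-NAME and 1 with anti-Fx1A. The share of all genes above the vehicle range was not counted animal by animal. The counts given here therefore describe the animals and do not set the 6 genes apart from other genes. All 6 genes were above the vehicle range in 2 combination animals (29 and 35), 2 L-NAME animals (23 and 25) and 1 anti-Fx1A animal (10). At least 4 genes were above it in 7 combination, 3 L-NAME and 1 anti-Fx1A animals. In contrast, 2 combination animals (30 and 36), 4 L-NAME animals and 2 anti-Fx1A animals had 0 of the 6 genes above the vehicle range, and combination animal 38 had 1 (Vim). Of the 5 anti-Fx1A animals with 1 gene above the range, that gene was Vim in 4 (animals 11, 15, 17 and 18) and Clu in animal 13.

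**Figure D4:**
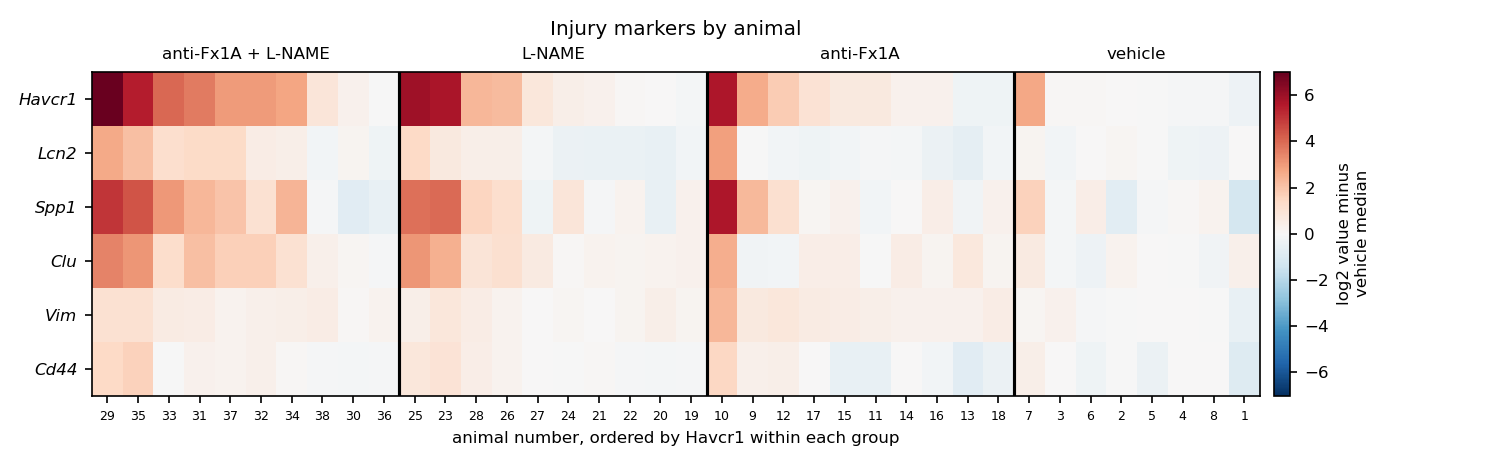
Log2 value minus the vehicle median (colour) of the 6 genes (rows) in the 38 animals (columns), ordered by Havcr1 within the combination, L-NAME, anti-Fx1A and vehicle groups from left to right. Combination animals 29 and 35 and anti-Fx1A animal 10 are high in all 6 genes, whereas anti-Fx1A animal 9 is high in Havcr1 and Spp1 and not in Clu.

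To see the relation apart from the group means, each value was taken as its distance from the mean of its group, and the 15 pairs of genes were correlated across the 38 animals. The closest pair was Havcr1 and Spp1, with Pearson's r = 0.952 and Spearman's rho = 0.741. Pearson's r lay between 0.632 (Clu and Vim) and 0.952 over the 15 pairs, and all 15 passed (two-sided permutation within groups, adjusted p at most 0.00026). For 13 pairs the permutation p was 1e-05 (adjusted p = 1.15e-05), the smallest that 100000 resamples can give. Spearman's rho, taken on ranks within groups, lay between 0.299 and 0.772 and passed in 13 pairs. It did not pass for Spp1 and Clu (rho = 0.299, adjusted permutation p = 0.0869) or for Clu and Vim (rho = 0.337, adjusted permutation p = 0.0576). Without the 2 animals farthest from the median of the first gene of a pair, which were anti-Fx1A animal 10 with either L-NAME animal 25 or combination animal 29, r lay between 0.532 (Lcn2 and Vim) and 0.941 (Havcr1 and Spp1). All values come from the same libraries, so depth and composition are shared by the genes of a pair.

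Within single groups the median r of the 15 pairs was 0.887 in the combination, 0.929 with L-NAME, 0.907 with anti-Fx1A and 0.516 with vehicle (10, 10, 10 and 8 animals), given here as a description without a test. With vehicle the range was -0.231 to 0.820, against 0.790 to 0.978 in the combination. Among all 12598 other genes tested, Spp1 stood in place 1 by r with Havcr1, and Havcr1 in place 1 for Spp1, the pair whose promoters are printed above with that of Lcn2. Clu stood in place 22 for Havcr1, Lcn2 in place 27, Cd44 in place 55 and Vim in place 257. For Cd44 the nearest members were Spp1 in place 4 and Havcr1 in place 7, and for Vim it was Cd44 in place 12. Vim stood only in place 654 for Clu, and Clu in place 376 for Vim. Over all other genes the median r with Havcr1 was -0.02, and 0.897% of them reached 0.8.

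On the values as deposited, with the group means left in, the 3 genes most like each of the 6 over 38 animals had r between 0.840 and 0.956. Of these 18 places, 4 were held by members, namely Spp1 for Havcr1, Havcr1 for Spp1, and both for Cd44. The other places went to 11 identifiers that were not paired with symbols. Of these, ENSRNOG00000063373 was among the 3 for Havcr1 (r = 0.943), Spp1 (0.949) and Cd44 (0.867), and ENSRNOG00000001607 for Lcn2 and Spp1 (0.911 each).

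**Figure D5:**
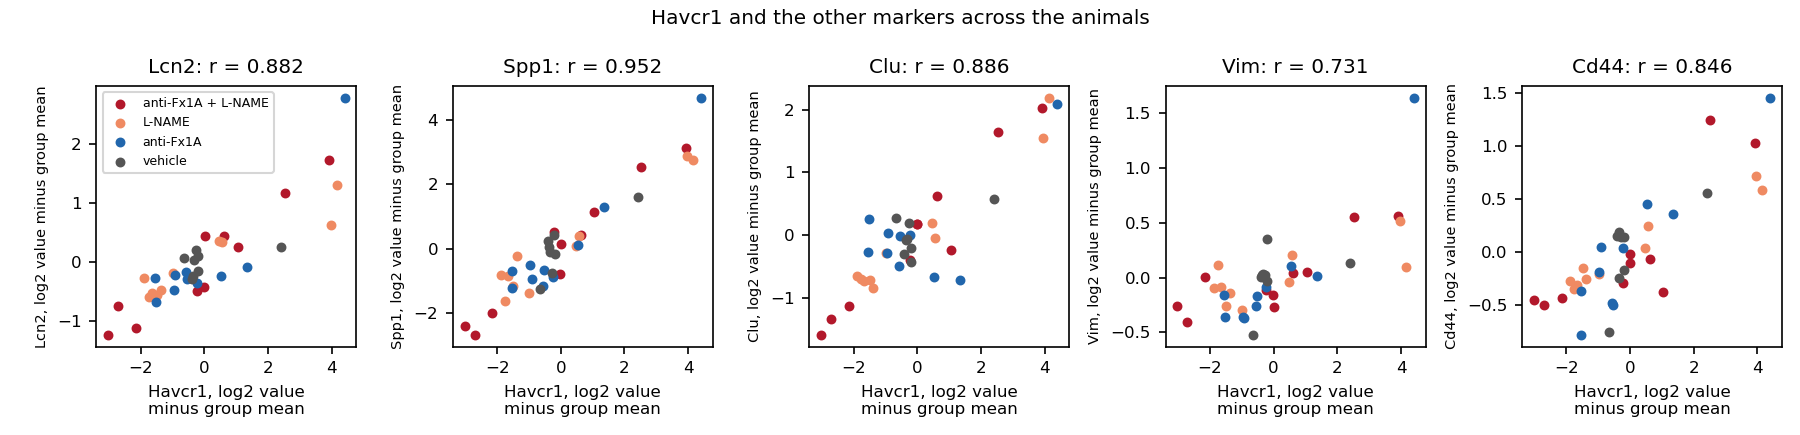
Distance from the group mean in log2 units of Havcr1 (x axis) and of Lcn2, Spp1, Clu, Vim and Cd44 (y axes) in the 38 animals, coloured by group. Values follow Havcr1 most tightly for Spp1 (r = 0.952) and least for Vim (r = 0.731), with exceptions such as anti-Fx1A animal 9, at 7.90 the second highest of its group in Havcr1 and at 9.10 the lowest in Clu.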

How the data were processed

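Kidney RNA of 38 rats was made into 3' end libraries with a QuantSeq kit, per the labels' protocols. The authors deposited log2 values; by the table's name and its values these went through a variance-stabilising step after correction for library size. Salmon 1.4.0, edgeR 3.40.2 and DESeq2 are listed, with no role, per the submitters' processing notes. Neither build nor annotation is given in the sources used here. Of the table, 2 rows of labels were left out, and 0 columns belonged to another series. Groups came from the sample titles, and columns were matched by library name. Nothing says more of the animals than their numbers, so p-values measure the spread between these samples.

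Inverting the stabilising curve from its lowest value (4.32) gave reads within 0.05 of a whole number for 100% of values up to 10000 reads. Genes whose mean exceeded that minimum by 1 log2 unit or more were tested (12599 of 30207, at least 99.43% of reads in every library). Limma 3.58.1 in R 4.3.3 fitted the 4 group means on the log2 values with trend and robust estimation, tested on simulated data, with Benjamini-Hochberg adjustment over all genes tested and a threshold of 0.05. SE and 95% intervals are those of limma. Relations used permutation within groups, adjusted over 15 pairs. Alternatives were other scalings, filters, weights, a covariate, voom on recovered reads and each animal left out.

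The 6 genes, the lists and the alternatives were chosen with earlier results of these data known. Named were the 6 genes and, for each, the 3 genes most like it. The 10 lists of other injury genes, ligands, receptors and cell type markers were not run, since the reference table pairs 0 of these identifiers with a symbol. RefSeq promoters (GRCr8) were matched by symbol, the symbols being those given with the identifiers.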

Additional observations from a re-analysis of the deposited data

Results flagged for a closer look

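In each of the 24 sets of values (6 genes in 4 groups) the distance of the highest or lowest animal from its neighbour was set against the range of the set, and 7 sets held an animal that stood apart by Dixon's 95% criterion. Chance alone gives such an animal in about 1 of 20 sets, and the 6 genes are read in the same animals, so the 7 are not independent. Anti-Fx1A animal 10 stood apart as the highest of 10 for Havcr1 (10.95, next 7.90), Lcn2 (8.42, next 5.55), Spp1 (16.32, next 12.93), Clu (11.89, next 10.06) and Vim (10.64, next 9.11). Vehicle animal 7 stood apart as the highest of 8 for Havcr1 (8.02, next 5.41). Vehicle animal 1 stood apart as the lowest of 8 for Vim (7.79, next 8.28). The share of reads in the top 10 genes was 18.2% in anti-Fx1A animal 10, against 31.3% in vehicle animal 7 and 30.6% in vehicle animal 1, and the part of library composition in these values was not tested.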

How the results depend on the processing

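Of 1357 values of single genes and pairs under alternative settings, 1313 kept their side of the threshold, 21 lost the call, 23 gained it and 0 called values changed sign. The number of the 6 genes called in the combination against vehicle was 4, and 2 with voom, where 35.8% and 30.2% of all genes were called. This number lay between 3 and 5 with each animal left out. For anti-Fx1A against vehicle it was 1 (Vim), and 0 without the filter on low values, 0 in a fit of only the groups compared and 0 with voom, with a range of 0 to 1 over animals left out. For the combination against anti-Fx1A it was 0, and 3 with library weights and 4 without the 3 libraries of lowest weight, with a range of 0 to 3 over animals left out; 3 was reached without anti-Fx1A animal 10. For the combination against L-NAME it was 0, and 1 with library weights and 1 without the 3 libraries of lowest weight. The remaining comparisons gave 0 calls in every setting run, and all 15 pairs passed in the 3 alternatives tried for them. Calls gained by leaving out a high animal of the lower group or a low animal of the higher group rest on differences raised by construction. They are a description and not added evidence. The causes were not tested. Lcn2 and Cd44 gave no value at the filter of 2 log2 units, which they do not reach. Over all genes, calls for anti-Fx1A against vehicle were 139 and ran from 50 in a fit of only these groups to 624 with library weights. For the combination against L-NAME they were 151 and ran from 95 without a filter to 1155 without the 3 libraries, for L-NAME against anti-Fx1A 48 and from 22 to 85, and for the difference of the L-NAME effects 0 and up to 41 without the 3 libraries. No paired analysis was possible because the animals carry numbers that no 2 groups share. Low depth limits Havcr1, Lcn2 and Cd44, with vehicle medians of 9, 14 and 15.5 reads.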
